A study of Homo sapiens with 6 samples.

Results

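The 7 genes for the classical cyclin-dependent kinase inhibitors were read in maps of H3K27me3, the repressive histone mark made by the methyltransferase EZH2, in 3 established lines of diffuse large B cell lymphoma (DLBCL), a cancer of mature B cells. Pfeiffer has an average gIC50 of 28 nM in the labels, WSU-DLCL2 one of 134 nM and KARPAS-422 one of 232 nM, for a compound the labels leave unnamed. EZH2 is mutant in each of them according to the labels. The lines were profiled for their unequal sensitivity to GSK126, which inhibits EZH2. There was a single H3K27me3 library per line and a single input library, the input being chromatin sequenced without immunoprecipitation. Both were made from cells fixed with formaldehyde. The labels list no drug treatment of the cells.

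The genes were taken by name, not by their values, though with earlier results of these data known. Each was given as an interval in kb on hg19, and an island, an interval that the authors' caller listed as enriched over input, counted for a gene if it met the interval or the 5 kb on either side by at least 1 base. The intervals are rounded to 1 kb, and an island can bridge short stretches with few reads. Together 17 islands were found at these genes, 7 in the Pfeiffer list, 5 in that of WSU-DLCL2 and 5 in that of KARPAS-422, of 21258, 23066 and 27589 autosomal islands. With no replicate library, no test between lines was possible, and the lines are compared by description. The lists held 17024803, 17188115 and 16039824 H3K27me3 reads in autosomal islands and 8800268, 8224578 and 5694645 input reads. Values for the 3 lines are given in this order of the lines, and a pair of read counts gives H3K27me3 reads first and input reads second. A gene without an island had too few reads for a call, not necessarily none.

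Cyclin-dependent kinases drive cells through the division cycle, and these inhibitors hold them back. The INK4 proteins bind the kinases CDK4 and CDK6 and keep them from their D-type cyclins, which keeps the retinoblastoma protein active. The CIP/KIP proteins bind complexes of cyclins with CDK2 and other kinases. Inhibitor genes of both families are known targets of Polycomb repression, and loss of CDKN2A is frequent in aggressive lymphoma. Other genes of this pathway were not analysed here, because no annotation of hg19 was used, and the B cell identity of the lines was not checked against marker genes for the same reason.

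The 7 genes fell into 3 kinds by where islands lay. CDKN1A, CDKN1B, CDKN1C and CDKN2D met an island in all 3 lines, CDKN2A and CDKN2C in Pfeiffer alone, and CDKN2B in no line. Pfeiffer thus had an island at 6 of 7 genes, WSU-DLCL2 at 4 and KARPAS-422 at 4. Among all autosomal tiles of 20 kb, an island was met by 34.7% in the Pfeiffer list, 34.7% in the WSU-DLCL2 list and 36.1% in the KARPAS-422 list. All 3 lines had an island in 24.1% of the tiles, no line in 53.7% and Pfeiffer alone in 3.3%. The gene windows were 13 to 38 kb long, and the genes were chosen by name, so the counts are read beside these shares as a description only. The windows of CDKN2A and CDKN2B overlap, so both genes share part of their chromatin.

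The counts were divided unevenly between the families. All 9 pairs of a CIP/KIP gene and a line had an island, and 5 of the 12 pairs of an INK4 gene and a line. Of the 4 INK4 genes, 3 met an island in Pfeiffer and 1 in each other line, beside the 34.7%, 34.7% and 36.1% of tiles. Islands of Pfeiffer covered 92.3% of the pooled CIP/KIP windows, those of WSU-DLCL2 70.5% and those of KARPAS-422 71.8%. The pooled INK4 windows were covered to 36.4%, 2.13% and 0.532%. The autosomes as a whole were covered to 25.6%, 24.8% and 24.7%. In the lists as deposited the INK4 share was thus above that of the autosomes in Pfeiffer and below it in the other lines. Most of the pooled INK4 length is 1 locus, the overlapping windows of CDKN2A (38 kb) and CDKN2B (18 kb). Most of the INK4 coverage of Pfeiffer, 25 kb, lay at CDKN2A. Reads outside the listed islands of that locus were not analysed, so little H3K27me3 and little DNA there cannot be told apart. The median covered share over the 7 windows was 65.8%, 15.4% and 3.85% in the same order. The 2 genes that only Pfeiffer had in islands set its higher count, and both islands were weak. With islands limited to a false discovery rate of 1e-10 or less, neither was left, and all 3 lines had an island at the same number of genes, 4. The Pfeiffer median, which is the share of the CDKN2A window, then became 15.4%, the same as that of WSU-DLCL2. Under that limit Pfeiffer islands covered 0% of the windows of CDKN2A, CDKN2B and CDKN2C and 15.4% of that of CDKN2D. Its pooled INK4 share was then no longer above the 25.6% of the autosomes in the list as deposited. The autosomal share under that limit was not analysed.

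**Figure D1:**
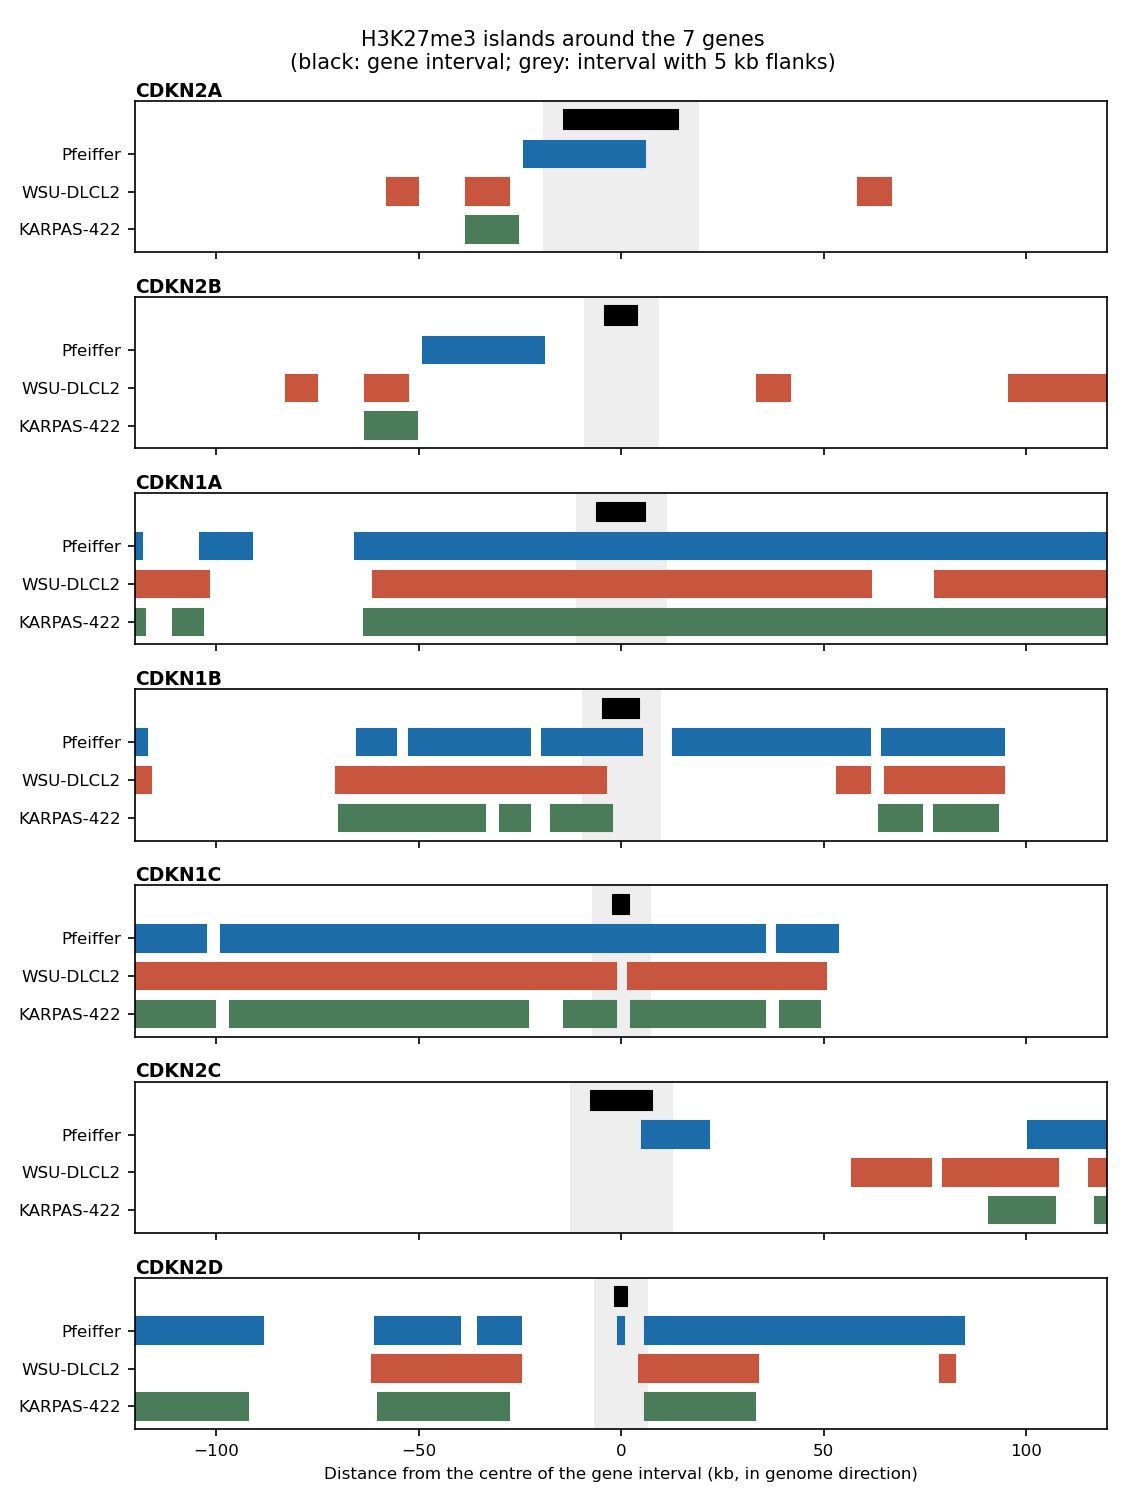
Islands of the 3 lines (coloured bars) around each gene, plotted by distance in kb from the centre of the gene interval (black) within 120 kb, with the 5 kb flanks in grey. CDKN1A lies inside a long island in every line, CDKN2B lies in none, and the islands of WSU-DLCL2 and KARPAS-422 at CDKN1C leave a short gap over the gene.

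CDKN1A encodes p21, the inhibitor that p53 induces after DNA damage. It was the most widely covered of the genes, with 100% of its window (chr6:36644001-36656000 and 5 kb flanks) inside an island in each line. The Pfeiffer island ran from 36584251 to 36819000 and was 234.75 kb long, the rank of 204 by length in that list. It held 6641 H3K27me3 and 2776 input reads, a fold over input of 2.06 (95% interval 1.97 to 2.15). Here the fold is the authors' ratio of H3K27me3 to input reads after scaling the libraries, and its interval covers counting error only, since amplified copies of a molecule can be counted more than once.

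In KARPAS-422 the CDKN1A island had nearly the same limits, 36586501 to 36819000, with 5833 and 1781 reads and a fold of 1.99 (1.89 to 2.1). In WSU-DLCL2 the domain was divided. The island at the gene ended at 36711750 after 123 kb, with 4356 and 1484 reads and a fold of 2.31 (2.18 to 2.46), and a further island from 36727501 to 36818250 had a fold of 2.15 (2.01 to 2.3). The left limits of the 3 lines lay within 55.25 to 59.75 kb of the gene interval. The right limit near 36819000 was common to all lines if the second island of WSU-DLCL2 is taken with the first. Median folds of the lists were 1.58, 1.54 and 1.61, so the island at the gene lay above the median in each line. Each fold is that of a whole island, not of the gene interval alone. Relative input, the input reads per kb of islands within 2.5 Mb on either side divided by the line's autosomal median, was 1.05, 1.03 and 0.976 around the gene.

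The start of CDKN1A lay inside an island in all 3 lines. The 250 bases before its listed start, from the RefSeq promoter table on GRCh38.p14 (chr6:36678464-36678713, plus strand), are shown because this is the promoter of the set that islands reach in all lines without doubt. Capitals mark each CG, the dinucleotide that is dense in the CpG islands where Polycomb complexes are known to bind. The window holds 27 CG, against a median of 11 over 35116 promoters of the table, of which 93.9% have at least 1.
CDKN1A: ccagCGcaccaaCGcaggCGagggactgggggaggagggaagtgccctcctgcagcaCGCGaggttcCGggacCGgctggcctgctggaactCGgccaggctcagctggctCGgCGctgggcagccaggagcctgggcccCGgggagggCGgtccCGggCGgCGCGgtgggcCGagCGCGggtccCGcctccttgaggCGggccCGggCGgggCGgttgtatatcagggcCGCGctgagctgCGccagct

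CDKN1B encodes p27, which keeps resting cells out of the cycle. Islands approached it from the left in all lines but reached over the whole interval (chr12:12867001-12876000) only in Pfeiffer. The Pfeiffer island from 12852001 to 12876750 covered 100% of the interval and 77.6% of the window with flanks, with 561 and 291 reads and a fold of 1.66 (1.44 to 1.92). The KARPAS-422 island ran from 12854251 to 12869250, covered 25% of the interval and 38.2% of the window, and had 390 and 118 reads and a fold of 2.01 (1.63 to 2.49). The WSU-DLCL2 island was longer, from 12801001 to 12867750 (66.75 kb), yet covered only 8.33% of the interval and 30.3% of the window, with 1573 and 761 reads and a fold of 1.63 (1.49 to 1.78). Past the gene, the next island began 8.25 kb from the interval in Pfeiffer, 48.75 kb in WSU-DLCL2 and 59.25 kb in KARPAS-422. Relative input was 0.97, 0.942 and 0.977.

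Whether the islands of WSU-DLCL2 and KARPAS-422 reach the start of CDKN1B could not be settled. The interval is 9 kb long, 3998 bases longer than the gene in the RefSeq table (5002 bases). A start anywhere from 12867001 to 12870999 would fit, and both islands end inside that range. The Pfeiffer island covers all of it.

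CDKN1C encodes p57, an inhibitor expressed from the maternal copy in an imprinted cluster, next to KCNQ1 in the order of genes of the RefSeq table. Islands lay on both sides of it in each line, but only in Pfeiffer was the gene itself fully inside an island. The Pfeiffer island from 2807251 to 2941500 on chromosome 11 covered 100% of the interval (chr11:2904001-2908000), with 3710 and 1557 reads and a fold of 2.05 (1.93 to 2.18). In WSU-DLCL2 an island of 180 kb from 2724751 ended at 2904750, and the next began at 2907751. Their folds were 2.13 (2.03 to 2.25) and 2.3 (2.08 to 2.55), on 5397 and 1485 H3K27me3 reads and 1993 and 509 input reads.

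In KARPAS-422 the island before CDKN1C ended at the same base, 2904750, and the next began at 2908501. The marked region was more divided there. These islands ran from 2892001 (12.75 kb, under the list's median length of 15.75 kb) and to 2941500 (33 kb), and the island before them ended at 2883000. They had 300 and 919 H3K27me3 reads, 88 and 190 input reads, and folds of 2.07 (1.63 to 2.66) and 2.94 (2.51 to 3.46). The gaps of 3.0 kb in WSU-DLCL2 and 3.75 kb in KARPAS-422 left 25% and 18.8% of the interval covered. No gap under 3.0 kb exists in any list, because the caller bridges shorter ones, so the smaller of the gaps is the shortest that could be listed. Gaps of at most 3.75 kb make up 23.9% of all gaps in the WSU-DLCL2 list and 25.1% in the KARPAS-422 list. With islands under 5 kb apart joined, the window of CDKN1C was covered to 100% in every line. Relative input around the gene was 1.04, 0.982 and 0.809, lowest in KARPAS-422. Of its islands beside CDKN1C, the second had the highest fold of the 5 at this gene and the first a fold below both of WSU-DLCL2. The part of input in these folds was not tested.

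**Figure D2:**
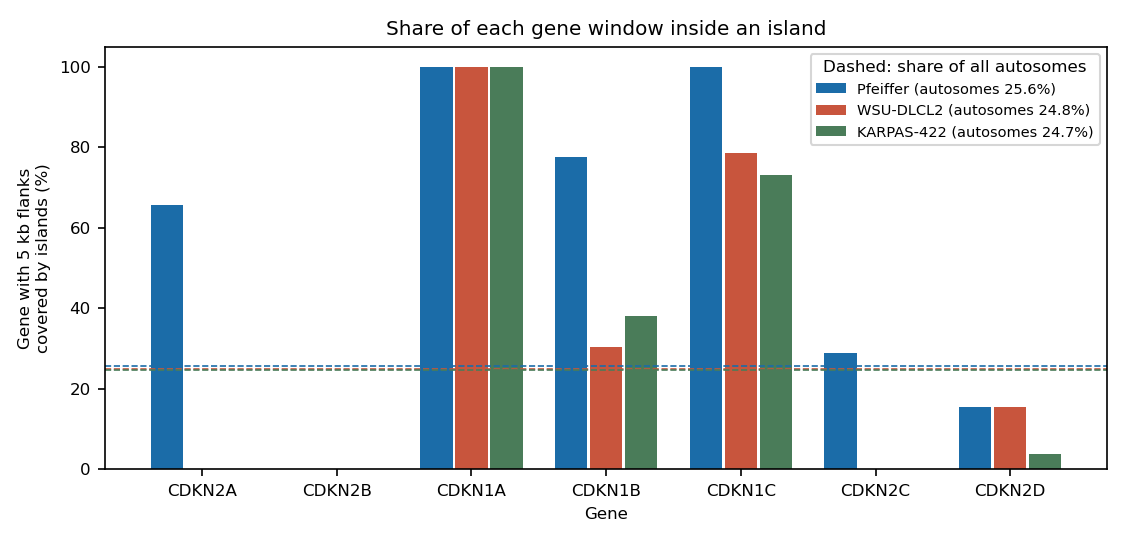
Bars give the percent of each gene window (interval with 5 kb flanks) inside islands, by gene and line, and dashed lines give the share of all autosomes covered in the same line (25.6%, 24.8% and 24.7%). CDKN1A stands at 100% in all lines, and only Pfeiffer has bars at CDKN2A (65.8%) and CDKN2C (29.0%).

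CDKN2A encodes 2 proteins, the CDK4 and CDK6 inhibitor p16 and, from a start farther upstream, ARF, which stabilises p53. An island met it in Pfeiffer alone. That island ran from 21957001 to 21987000 on chromosome 9, with 433 and 275 reads. Its fold of 1.36 (1.16 to 1.58) ranked low, at or above only 15.8% of the islands of Pfeiffer, and its false discovery rate was 1.1e-09. It covered 71.4% of the interval (chr9:21967001-21995000) and 65.8% of the window. Among islands of 0.8 to 1.25 times its length, 899 of 3865 in WSU-DLCL2 and 734 of 4024 in KARPAS-422 had a fold no higher. These counts cover listed islands only. Whether a mark of like strength at CDKN2A went unlisted in those lines was not tested.

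The nearest islands to CDKN2A in the other lines ended before it. They began at the same base, 21942751, and ended at 21953250 in WSU-DLCL2, 13.75 kb from the interval, and at 21955500 in KARPAS-422, 11.5 kb from it. Their folds were 1.39 (1.11 to 1.76) on 212 and 120 reads and 1.5 (1.18 to 1.92) on 237 and 96 reads. The Pfeiffer island thus began just past the KARPAS-422 island, and neither of these islands overlapped that of Pfeiffer. Reads of the other lines under the Pfeiffer island were not analysed, so the mark there was not compared between lines.

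CDKN2B, the neighbour of CDKN2A, encodes p15, the inhibitor induced by TGF-beta. Its window was covered to 0% in all 3 lines. The stretch without an island around it (interval chr9:22002001-22010000) measured 211.5 kb in the Pfeiffer list, 86.25 kb in the WSU-DLCL2 list and 240.75 kb in the KARPAS-422 list, and in the last 2 lists it also held CDKN2A. Stretches at least that long make up 7.05%, 16.8% and 4.85% of the gaps between islands of these lists. These are shares by number of gaps, and the share of sequence in such long gaps is larger and was not analysed. Within 500 kb of CDKN2B, islands covered 8.78%, 15.7% and 2.38%, so the whole region was poor in islands. Relative input within 2.5 Mb was 0.973, 0.938 and 0.997, read in islands only. Input reads inside the stretch were not analysed here, so little H3K27me3 and little DNA there cannot be told apart.

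The start regions of the chromosome 9 genes are shown because the Pfeiffer island separates them. It stopped 8 kb short of the interval's upstream end, where transcription of CDKN2A (minus strand) begins, and so left out the first start in every line. In the RefSeq table a second start lies 20.47 kb downstream of the first, farther than the 8 kb left uncovered. Positions were not carried between builds. The 250 bases before each start (GRCh38.p14, minus strand, at chr9:21995325-21995574 and chr9:21974858-21975107 for CDKN2A and chr9:22009306-22009555 for CDKN2B), with CG in capitals, hold 24, 20 and 18 CG. These promoters of the chromosome 9 genes are thus also richer in CG than the median promoter, with or without an island near them.
CDKN2A, first start: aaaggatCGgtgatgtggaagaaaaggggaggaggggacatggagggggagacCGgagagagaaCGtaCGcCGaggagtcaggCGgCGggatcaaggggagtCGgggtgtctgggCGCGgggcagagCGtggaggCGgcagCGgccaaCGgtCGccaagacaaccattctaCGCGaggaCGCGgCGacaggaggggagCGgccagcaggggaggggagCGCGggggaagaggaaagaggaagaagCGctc
CDKN2A, second start: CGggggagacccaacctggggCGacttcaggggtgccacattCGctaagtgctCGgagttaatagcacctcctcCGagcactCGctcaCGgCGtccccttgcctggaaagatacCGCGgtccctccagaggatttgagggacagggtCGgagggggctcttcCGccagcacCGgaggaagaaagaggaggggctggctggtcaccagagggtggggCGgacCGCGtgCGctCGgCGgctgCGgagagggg
CDKN2B: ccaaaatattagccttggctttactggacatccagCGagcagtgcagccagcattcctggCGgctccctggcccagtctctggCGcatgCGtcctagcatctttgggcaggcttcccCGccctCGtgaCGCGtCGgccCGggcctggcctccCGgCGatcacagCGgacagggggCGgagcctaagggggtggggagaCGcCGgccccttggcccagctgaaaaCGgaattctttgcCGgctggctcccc

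CDKN2C encodes p18, an INK4 protein known for its part in the formation of plasma cells. Only Pfeiffer had an island at it, and that island lay at the downstream end. It ran from 51438751 to 51455250 on chromosome 1 and covered 15.0% of the interval (chr1:51426001-51441000) and 29.0% of the window. With 238 and 164 reads its fold of 1.25 (1.02 to 1.53) was at or above only 3.95% of the Pfeiffer list, and its false discovery rate of 0.000454 was close to the limit of 0.001 for listing. Its left edge lay 12.75 kb downstream of the start of the interval. The RefSeq table lists 3 starts of CDKN2C, the second and the third 7.96 and 9.5 kb after the first, nearer than that edge. The 250 bases before them hold 7, 35 and 10 CG. The first and the third thus lie below the median of 11, unlike the promoters shown for the other genes.

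In the other lines CDKN2C lay in long stretches without an island, 663.75 kb in WSU-DLCL2 and 684.75 kb in KARPAS-422. Such lengths are reached by 2.07% and 1.38% of the gaps of these lists, counted by number. Long gaps hold a larger share of the sequence without islands than of the number of gaps. That share of sequence was not analysed, so these percentages do not tell how unusual the place of the gene is. In Pfeiffer the nearest island before the gene was 525.8 kb away, so the upstream side was empty in all lines. The next island downstream began 93 kb from the interval in Pfeiffer, 49.5 kb in WSU-DLCL2 and 83.25 kb in KARPAS-422. Relative input within 2.5 Mb was 1.02, 1.02 and 1.01, read in islands only. Input reads inside the stretches without an island were not analysed, so little H3K27me3 and little DNA there cannot be told apart.

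CDKN2D encodes p19, the fourth INK4 protein. The gene interval (chr19:10677001-10680000) held an island only in Pfeiffer, although the window met an island in all lines (15.4%, 15.4% and 3.85% covered). That Pfeiffer island was among the shortest of its list, 1.5 kb from 10677751 to 10679250. It held 67 H3K27me3 and 21 input reads, a fold of 2.75 whose wide interval (1.66 to 4.72) reflects the few reads. It covered 50% of the gene interval. The islands of the other lines met only the flank, 3.0 kb from the gene in WSU-DLCL2 and 4.5 kb in KARPAS-422, so that without flanks neither line had an island at CDKN2D.

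These flanking islands are the cases nearest to the 5 kb limit on the inside. The nearest outside it was the island 8.25 kb past CDKN1B in Pfeiffer. Beside CDKN2D, Pfeiffer had an island from 10684501 to 10763250 with a fold of 2.22 (2.03 to 2.42), on 1825 and 709 reads. That of WSU-DLCL2, from 10683001 to 10712250, had 2.42 (2.11 to 2.8), on 806 and 262 reads. That of KARPAS-422, from 10684501 to 10711500, had 1.94 (1.63 to 2.31), on 557 and 175 reads. In WSU-DLCL2 and KARPAS-422 the gene thus sat in a break between islands, and in Pfeiffer the short island lay within that break. On the other side, islands ended 23.25 kb from it in Pfeiffer and WSU-DLCL2 and 26.25 kb in KARPAS-422. Relative input was 0.888, 0.908 and 0.82, below the median in each line, and its part in the folds was not tested.

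The promoter of CDKN2D is shown because the short Pfeiffer island lay beside it. That island ended 0.75 kb before the upstream end of the interval, and the start, which may lie from 10679520 to 10680000, was outside it. The 250 bases before the listed start (GRCh38.p14, chr19:10568980-10569229, minus strand) hold 33 CG, as many as or more than 93.2% of the promoters of the table.
CDKN2D: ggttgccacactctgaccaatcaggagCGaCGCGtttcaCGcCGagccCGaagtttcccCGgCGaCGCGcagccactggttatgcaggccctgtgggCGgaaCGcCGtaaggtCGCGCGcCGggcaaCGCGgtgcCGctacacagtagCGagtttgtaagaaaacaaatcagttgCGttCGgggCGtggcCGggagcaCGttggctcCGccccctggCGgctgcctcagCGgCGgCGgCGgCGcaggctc

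**Figure D3:**
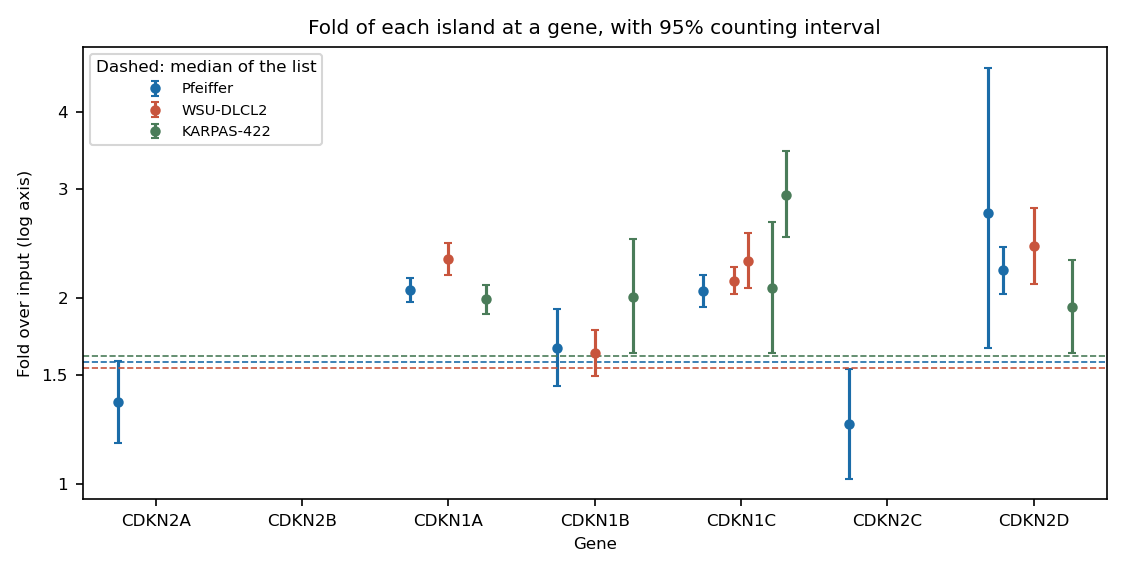
Points give the fold over input, on a log axis, of every island at a gene, with bars for the 95% counting interval, and dashed lines give the median fold of each list (1.58, 1.54 and 1.61). Islands at CDKN1A, CDKN1B, CDKN1C and CDKN2D lie above the medians, and those at CDKN2A (1.36) and CDKN2C (1.25) in Pfeiffer lie below. The intervals at CDKN1B in Pfeiffer and WSU-DLCL2 reach below the medians.

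The islands of the CIP/KIP genes had folds from 1.63 to 2.94 and those of the INK4 genes from 1.25 to 2.75. Of all autosomal islands, 10.5%, 11.3% and 19.6% had a fold of at least 2. With only such islands, Pfeiffer had an island at CDKN1A, CDKN1C and CDKN2D, WSU-DLCL2 at the same 3 genes, and KARPAS-422 at CDKN1B and CDKN1C. CDKN1C was then the only gene left in all lines. In KARPAS-422 the fold of 1.99 at CDKN1A fell just under that limit.

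The shares with wider flanks show how far the differences between lines extended. With flanks of 25 kb CDKN1A was still covered to 100% in each line. With 100 kb it was covered to 87.0%, 73.5% and 81.3%, and with 500 kb to 49.2%, 63.9% and 54.6%. At CDKN1B Pfeiffer led with 82.2% against 43.6% and 37.3% at 25 kb and with 68.54% against 49.88% and 40.55% at 100 kb. With 500 kb WSU-DLCL2 was highest there and KARPAS-422 lowest (51.0%, 53.4% and 43.5%). At CDKN2A Pfeiffer led with 38.5% against 13.5% and 16.3% at 25 kb, and at 500 kb WSU-DLCL2 was highest (8.61%, 15.4% and 2.34%). At CDKN1C the lines were close at 500 kb, with 66.2%, 61.9% and 60.8%. For CDKN2C the order also turned, from 25.4% in Pfeiffer and 0% in the others at 25 kb to 21.1%, 26.2% and 11.5% at 500 kb. CDKN2D went the other way, with 44.8%, 44.8% and 38.7% at 25 kb. Pfeiffer led there at 100 kb (61.45%, 34.36% and 33.74%) and at 500 kb (23.1%, 13.1% and 19.3%).

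**Figure D4:**
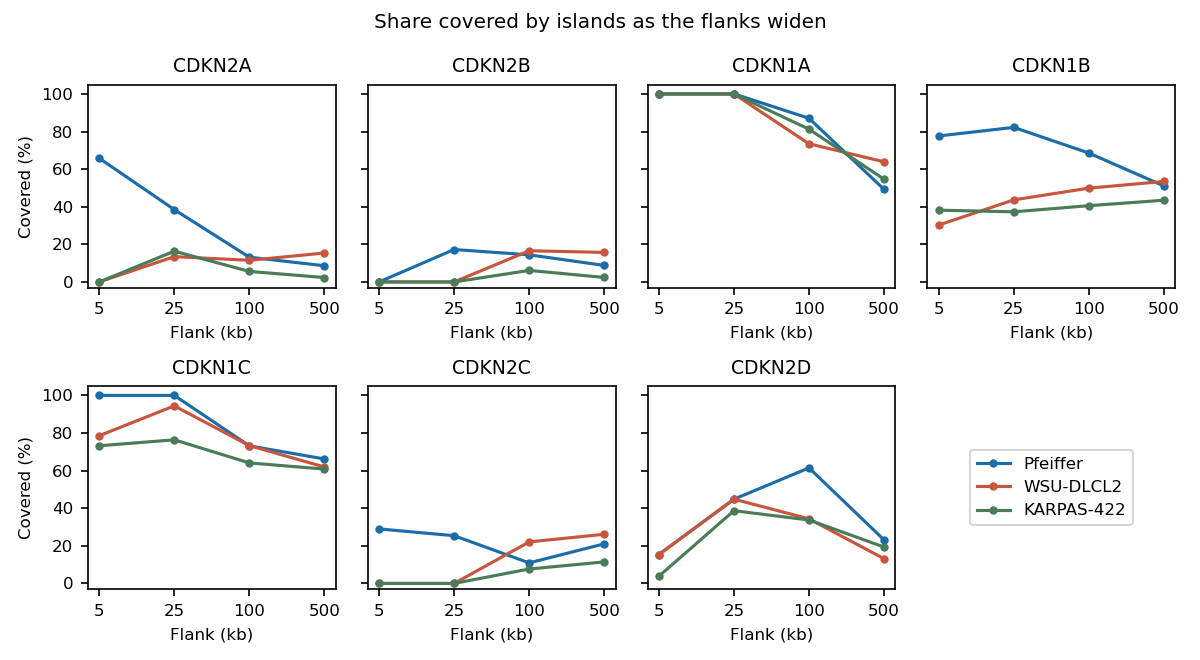
Each panel gives the percent of a gene interval and its flanks covered by islands, for flanks of 5, 25, 100 and 500 kb, with a line for each cell line. The lead of Pfeiffer at CDKN2A, CDKN1B and CDKN2C is seen with flanks of 5 and 25 kb, and at CDKN2A and CDKN1B also with 100 kb. At 500 kb WSU-DLCL2 is highest at each of these genes.

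The upstream end of the interval lay inside an island in each line at 2 of the 6 genes whose strand the promoter table gives, CDKN1A and CDKN1B. For CDKN1B in WSU-DLCL2 and KARPAS-422 the start itself stayed undetermined. Of all autosomal windows of 750 bases, 25.6%, 24.8% and 24.7% lay in an island. When the whole range of possible starts had to be inside, both genes were left in the Pfeiffer list and CDKN1A alone in the lists of the other lines. The starts of CDKN2A (the first), CDKN2B, CDKN2C (the first) and CDKN2D were outside islands in every line.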

How the data were processed

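H3K27me3 chromatin immunoprecipitation with its input was sequenced in 3 lines, 1 library of each kind per line. The submitters' processing notes name Bowtie, SICER and the build hg19, an aligner, an island caller and a genome build. Neither versions nor read filters are given in the sources used here. According to the names of the deposited lists, SICER used windows of 750 bases, gaps up to 2250 bases and a limit of 0.001 on the false discovery rate. The deposited columns used were the counts of H3K27me3 and input reads, the authors' p-value and false discovery rate (q-value), and the authors' fold, a ratio of these counts after library scaling. Total depth is unknown, since the lists name islands only.

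Gene intervals in kb on hg19 came with the choice of genes, not from an annotation, and were read as 1-based. Both the members and the lists were chosen with earlier results of these data known. All 7 genes were named, with every island at them and the nearest island otherwise. Covered bases were counted on autosomes (length 2879 Mb, to the last listed base). Fold intervals are exact (Clopper-Pearson) 95% intervals for the ratio of 2 counts, scaled by the library ratio that the folds return (1.16, 1.27 and 1.65), checked on simulated data. Relative input needed at least 30 kb of islands. Strand, gene length, gene order and promoters came from RefSeq tables for GRCh38.p14, in which 6 of 7 genes had a promoter entry; the possible range of a start assumes that the gene lies within its interval and has the same length on both builds. Alternatives were stricter or equal lists, other flanks, joined islands and other tiles; the range of possible starts was added after seeing the data. The pathway gene list was not run. Python 3.11.15, numpy 2.4.6, pandas 2.3.3, scipy 1.17.1 and matplotlib 3.10.9 were used.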

Additional observations from a re-analysis of the deposited data

How the results depend on the processing

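The counts of genes with an island moved by over 1.5 times only when islands were limited to a fold of at least 2. The count then was 3 in Pfeiffer and 2 in KARPAS-422, with 1 gene in all 3 lines. It stayed at 3 of the 4 genes in WSU-DLCL2. Taken by the upstream end of the interval, the starts inside an island were then 1 in each line, but not of the same gene. It was CDKN1A in Pfeiffer and WSU-DLCL2 and CDKN1B, whose start itself is undetermined there, in KARPAS-422. When the whole range of possible starts had to lie inside, an alternative chosen after seeing the data, the number of starts was 1 in WSU-DLCL2 and 1 in KARPAS-422. A false discovery rate of 1e-10 left 4 genes in Pfeiffer. Without flanks 3 genes had an island in WSU-DLCL2, in KARPAS-422 and in all 3 lines, and 6 in Pfeiffer. Equal lists, flanks of 10 kb and joined islands gave the same counts as the lists as deposited. The share of tiles with an island was 31.2%, 30.8% and 31.8% for tiles of 10 kb and 39.8%, 40.2% and 41.9% for tiles of 40 kb. No paired analysis was possible because each line had 1 library of each kind and no test was made. Fold rests on fewest input reads in KARPAS-422.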

Other observations

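Islands around the chromosome 9 pair differed in place between lines also beyond the genes. WSU-DLCL2 had islands from 22039501 to 22047750 (fold 1.43, 95% interval 1.1 to 1.88) and from 22101751 to 22154250 (52.5 kb, 1049 H3K27me3 and 626 input reads, fold 1.32, 1.2 to 1.46). Both lay within the stretches without an island of Pfeiffer (to 22198500) and KARPAS-422 (to 22196250). Within 250 kb of the pair WSU-DLCL2 had 8 islands, and Pfeiffer and KARPAS-422 had 3 each. On the side of MTAP, the gene before CDKN2A in the RefSeq order, Pfeiffer had an island from 21766501 to 21801750 (fold 1.2, 1.05 to 1.38), and WSU-DLCL2 had islands from 21759751 to 21780000 (1.35, 1.14 to 1.61) and from 21783001 to 21802500 (1.59, 1.35 to 1.89). The only KARPAS-422 island within 250 kb on that side was the island from 21942751 to 21955500 described above.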
